A study of Caenorhabditis elegans with 6 samples.

Results

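The acetylcholinesterase family of the nematode Caenorhabditis elegans was followed here as its 4 genes, ace-1, ace-2, ace-3 and ace-4, in worms treated with chlorpyrifos (CPF) and in control worms. Probes were taken where their sequence name belonged to a gene with 1 of these symbols. This gave 4 probes for 4 genes, out of 22490 probes for 18865 genes, so each gene rested on a single probe. CPF worms and control worms were all of the wild type strain N2 and grew from eggs for 72 h at 16 °C on NGM agar with Escherichia coli OP50. They were collected at the L3 to L4 larval stage. The agar of the CPF worms held CPF dissolved in acetone, and that of the control worms held acetone alone. The CPF concentration is 0.5 mg/ml in the labels and the same number per litre in the methods, and nothing in the files shows which unit is right. Each of the 6 arrays carried 1 CPF sample and 1 control sample in 2 colours. On 3 arrays the CPF sample was in Cy5 (CPF Cy5 replicates 1 to 3), and on 3 arrays it was in Cy3 (CPF Cy3 replicates 1 to 3). By the methods, a sample pooled the worms of 4 dishes. The methods state that the 6 replicates of a treatment were independent biological ones. The sources used here do not say whether control extracts were shared between arrays.

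Acetylcholinesterase splits acetylcholine in the synaptic cleft and so ends its action on nicotinic and muscarinic receptors. CPF is an organophosphorus insecticide whose oxidised form, the oxon, binds the active-site serine of the enzyme and blocks it. In C. elegans the enzyme activity comes mainly from ACE-1, made largely in muscle, and ACE-2, made largely in neurons, while ACE-3 makes a minor form. The ace-4 gene is transcribed together with ace-3, and no active enzyme is known from it. The arrays measured RNA of whole worms and not enzyme activity, and in such bulk samples fewer cells of a type and less RNA per cell cannot be told apart.

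In the gene table used for names, ace-1 (W09B12.1) lay on chromosome X and ace-2 (Y44E3A.2) on chromosome I. Both ace-3 (Y48B6A.8) and ace-4 (Y48B6A.7) lay on chromosome II, as neighbouring coding genes with no other coding gene annotated between them. The files did not name a genome build for the probes, so no coordinates are given.

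A spot was counted above background where its mean brightness exceeded the mean of its local background by more than 2 SD of that background. Over all probes this held for 35.0% to 56.9% in the CPF samples and for 41.5% to 61.6% in the control samples, against 0.135% of the empty spots. The Cy5 share was higher than the Cy3 share on 6 of 6 arrays. A pair of arrays stood apart from the rest. Over all probes, the log2 ratios of CPF Cy3 replicates 2 and 3 correlated at 0.32 with each other and at -0.12 to 0.10 with the other 4 arrays, which correlated at 0.36 to 0.56 among themselves. Values without this pair are given below as a setting added after the data were seen. They cover the acetylcholinesterase genes, the genes with signal named from related gene lists, and the marker sums shown.

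Among the acetylcholinesterase probes, ace-2 was the bright one. Its spot brightness in the CPF samples was 9533, 10510 and 4581 on CPF Cy5 replicates 1 to 3 and 3061, 3991 and 8519 on CPF Cy3 replicates 1 to 3. In the control samples of the same arrays it was 8322, 8267 and 3976, and 11399, 5637 and 9301. The spot was therefore above background on 6 of 6 arrays in CPF worms and on 6 of 6 in control worms. It was 18.2 to 61.5 times as bright as its local background in CPF samples (median 33.6) and 23.1 to 69.1 times in control samples (median 47.4), and none of its pixels were saturated. Before normalization the direction followed the dye, since the CPF spot was the brighter on the 3 arrays with CPF in Cy5 and the dimmer on the 3 with CPF in Cy3.

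For ace-1, the enzyme gene of muscle, the signal was close to background. Spot brightness was 280, 259 and 283 in the CPF samples of CPF Cy5 replicates 1 to 3 and 202, 270 and 447 in those of CPF Cy3 replicates 1 to 3. The control samples of these arrays gave 262, 220 and 221, and 225, 219 and 292. The spot was above background in 5 of 6 CPF samples, all but that of CPF Cy3 replicate 1, and in 4 of 6 control samples, all but those of CPF Cy5 replicates 2 and 3. Brightness over local background ran over 1.20 to 2.11 in CPF samples (median 1.61) and 1.26 to 1.72 in control samples (median 1.37).

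A similarly dim spot was seen for ace-3, the gene of the minor enzyme form. Its brightness was 293, 252 and 301 in the CPF samples of CPF Cy5 replicates 1 to 3 and 217, 253 and 340 in those of CPF Cy3 replicates 1 to 3. In the control samples it was 289, 237 and 245, and 235, 212 and 257. It was above background in 4 of 6 CPF samples, all but those of CPF Cy3 replicates 1 and 3, and in 5 of 6 control samples, all but that of CPF Cy5 replicate 3. Brightness over local background was 1.25 to 1.73 in CPF samples (median 1.51) and 1.30 to 1.70 in control samples (median 1.41). For ace-1 and ace-3 alike, the spot was above background in 6 of 6 Cy5 scans and in 3 of 6 Cy3 scans.

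No signal over background was detectable for ace-4. Its spot gave 190, 179 and 186 in the CPF samples of CPF Cy5 replicates 1 to 3 and 179, 176 and 208 in those of CPF Cy3 replicates 1 to 3. The control samples gave 185, 190 and 173, and 166, 167 and 189. The spot was above background in 0 of 6 CPF samples and 0 of 6 control samples, at 0.994 to 1.12 and 0.994 to 1.08 times its local background. This was so for 7888 of the 22490 probes (35.07%), which were not above background in any sample. Brightness of spots with different probes depends on the probe, so the 4 genes were not ranked by level.

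**Figure D1:**
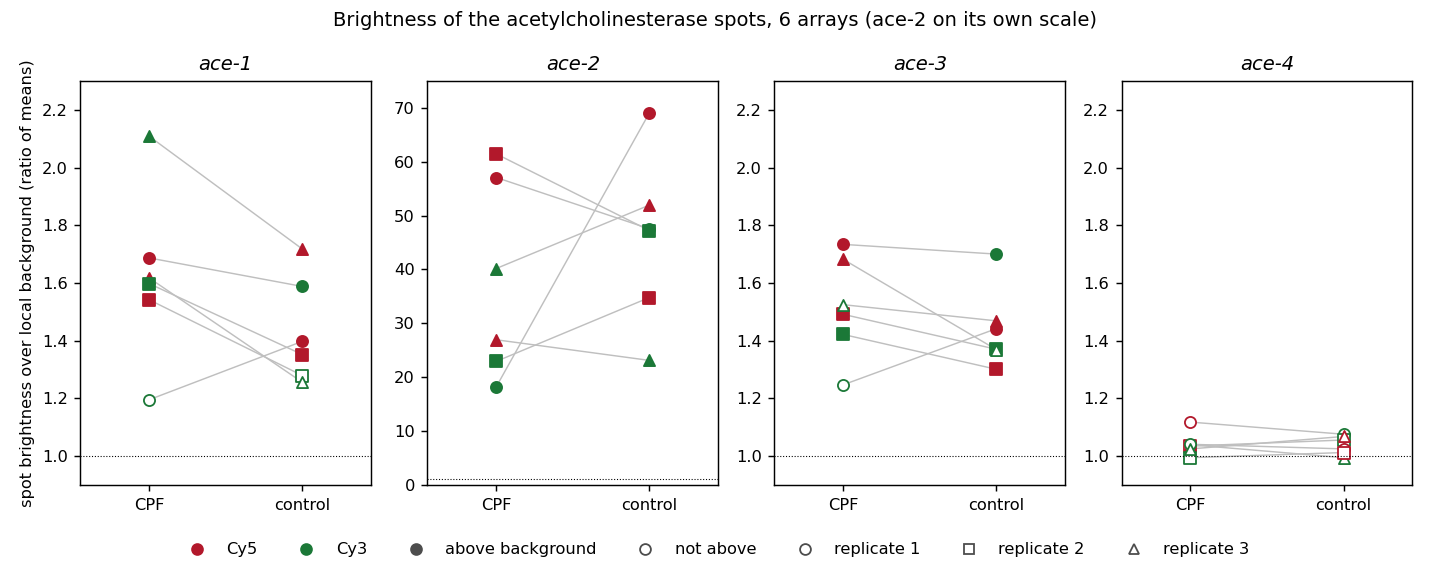
Spot brightness over local background (ratio of means, linear axis) for the 4 acetylcholinesterase probes, CPF left of control, with a line joining the samples of 1 array; colour gives the dye, shape the replicate, and open symbols were not above background. The ace-2 spots reach 18.2 to 69.1 on a scale of their own, those of ace-1 and ace-3 lie between 1.20 and 2.11, and the ace-4 spots lie at 0.994 to 1.12.

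After loess normalization of the mean intensities, ace-1 was higher and ace-2 was lower in CPF worms on 6 of 6 arrays each, but neither passed the test across all genes, and the count was 5 of 6 for ace-1 with median intensities and 4 of 6 for ace-2 with median centring. In limma, 0 of the 4 genes had an adjusted p below 0.05, against 225 of 18865 genes (1.19%), of which 61 were higher (0.323%) and 164 lower (0.869%) in CPF worms. At an unadjusted p below 0.05 there were 2 of the 4, ace-1 and ace-2, against 1950 of all genes (10.3%). The rank product, the test named in the methods, called 0 of the 4 probes and 596 of 22490 (2.65%).

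The log2 ratio of CPF over control for ace-1 was 0.05, 0.40 and 0.25 on CPF Cy5 replicates 1 to 3 and 0.06, 0.53 and 0.37 on CPF Cy3 replicates 1 to 3. All 6 values were above 0, as for 2.86% of all genes, and the arrays numbered 1 in both dye orientations were the lowest. The fitted log2 change was 0.28 ± 0.09 (SE, n = 6), a fold of 1.21 with a 95% interval of 1.05 to 1.4. Its adjusted p in limma was 0.283. On the 3 arrays where ace-1 was above background in both samples, the log2 ratios were 0.05, 0.53 and 0.37. Without CPF Cy3 replicates 2 and 3, the change was 0.15 ± 0.11 (adjusted p = 0.529 in limma). The adjusted p stayed at 0.115 or above under all alternatives run.

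The log2 ratio for ace-2, the enzyme gene of neurons, was -0.11, -0.08 and -0.77 on CPF Cy5 replicates 1 to 3 and -1.21, -0.06 and -0.37 on CPF Cy3 replicates 1 to 3. All 6 values were below 0, as for 4.28% of all genes, and the values of CPF Cy3 replicate 1 and CPF Cy5 replicate 3 were the lowest. The fitted change was -0.43 ± 0.16 (SE, n = 6) on the log2 scale, a fold of 0.741 with a 95% interval of 0.572 to 0.960. Its adjusted p in limma was 0.383. The ratios of ace-2 spread widely between arrays. Their SD of 0.47 was above that of 81.0% of the 6408 probes that were above background in every sample, where the median SD was 0.295. With median centring in place of the loess curve, the ratio was above 0 at 0.16 and 0.24 on CPF Cy5 replicates 1 and 2 and below 0 on the other 4.

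For ace-2 the call depended on how scan day entered the fit. The files recorded 2 scan days. Day 1 held CPF Cy5 replicates 1 and 2 with CPF Cy3 replicate 1, and day 2 held the other 3 arrays. With scan day as a block, so that each day had its own dye effect, the log2 change was -0.57 ± 0.09 with an adjusted p of 0.0481 in limma, where 130 genes (0.689%) were called and 81 (0.429%) were lower. Within scan day 1 it was -0.65 ± 0.10 (adjusted p = 0.0278), where 861 genes (4.56%) were called and 630 (3.34%) were lower. Within scan day 2 it was -0.49 (adjusted p = 0.35), where 139 genes (0.737%) were called and 94 (0.498%) were lower.

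In these fits the spread of ace-2 itself came from arrays of 1 dye orientation on 1 day, which read -0.11 and -0.08 on day 1 and -0.06 and -0.37 on day 2. The large differences between dye orientations within a day entered the dye effect and not the error. They ran opposite ways, since on day 1 the Cy3 array was the lower, at -1.21, and on day 2 the Cy5 array was the lower, at -0.77. Tested directly, the change on day 2 minus that on day 1 was 0.16 ± 0.35 (adjusted p = 0.932). Over all 6 arrays the dye effect of ace-2 was 0.11 ± 0.16 (adjusted p = 0.918), and those of the other 3 genes also missed the threshold (adjusted p of 0.860 to 0.943, with 6 probes called in all).

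Single arrays also weighed on ace-2. Without CPF Cy3 replicate 1 the log2 change was -0.27 (adjusted p = 0.353). Without CPF Cy3 replicates 2 and 3 together it was -0.76 ± 0.15 (adjusted p = 0.0547, with 619 genes called). The change was below 0 in every setting, including these, at -0.76 to -0.27.

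For ace-3 the log2 ratio was -0.02, 0.09 and 0.14 on CPF Cy5 replicates 1 to 3 and 0.11, 0.34 and 0.12 on CPF Cy3 replicates 1 to 3. Of these, 5 of 6 were above 0 and CPF Cy3 replicate 2 was the highest. The fitted log2 change was 0.13 ± 0.07 (SE, n = 6; 95% interval -0.04 to 0.30), with an adjusted p of 0.637 in limma. On the 3 arrays where ace-3 was above background in both samples the log2 ratios were -0.02, 0.09 and 0.34. Without CPF Cy3 replicates 2 and 3 the change was 0.09 ± 0.09 (adjusted p = 0.685).

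For ace-4, both samples of every array lay at background, so no fold is given. The log2 ratios of these background signals were 0.30, -0.05 and 0.22 on CPF Cy5 replicates 1 to 3 and 0.04, -0.05 and -0.28 on CPF Cy3 replicates 1 to 3, which gave 3 arrays on either side of 0 (adjusted p = 0.956 in limma, and 0.714 without CPF Cy3 replicates 2 and 3).

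**Figure D2:**
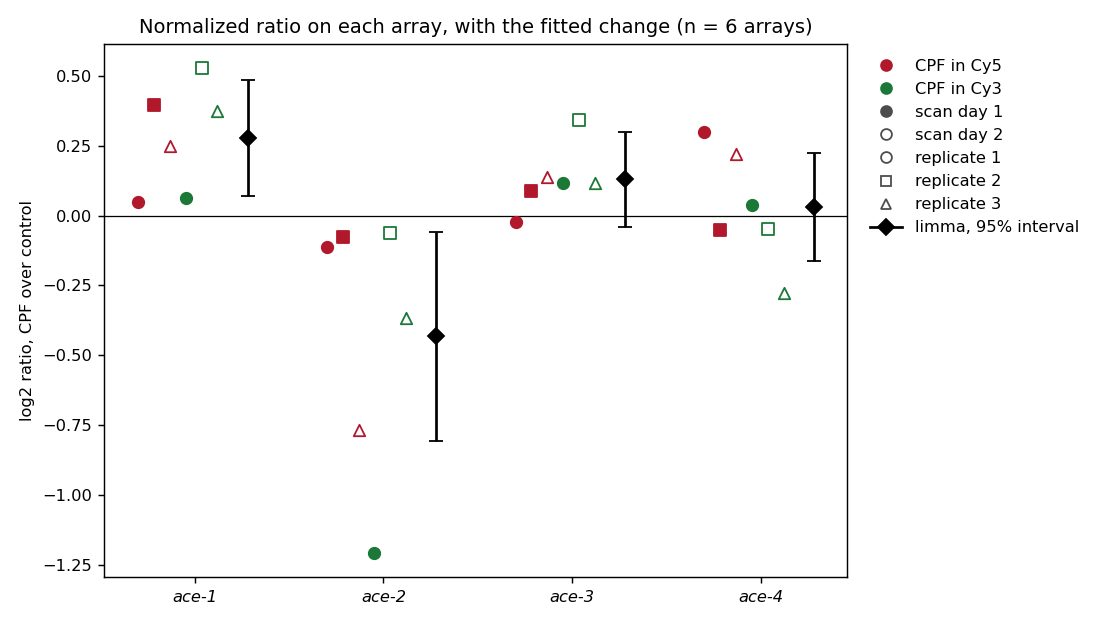
Log2 ratio of CPF over control on each of the 6 arrays for the 4 genes (colour, dye of the CPF sample; shape, replicate; filled, scan day 1; open, scan day 2), with the fitted log2 change and its 95% interval as diamond and bar. The 6 ace-1 points lie at 0.05 to 0.53, the 6 ace-2 points at -1.21 to -0.06, and the points of ace-3 and ace-4 fall on both sides of 0.

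Whether the genes differed from each other in their response was tested on the difference of their log2 ratios within each array, by an exact two-sided sign-flip permutation test over 6 arrays. The smallest p this test can give is 0.03125, and 6 pairs were compared. The ratio of ace-1 exceeded that of ace-2 on 6 of 6 arrays, by 0.71 ± 0.39 (SD) on the log2 scale (exact p = 0.03125, adjusted p = 0.0625). The ratio of ace-2 was below that of ace-3 on 6 of 6 arrays, with a difference of -0.56 ± 0.47 (exact p = 0.03125, adjusted p = 0.0625). Between ace-1 and ace-3, the dim pair, the difference was 0.15 ± 0.13 and ace-1 was the higher on 5 of 6 arrays (exact p = 0.0625, adjusted p = 0.0938). The 3 differences that involve ace-4, whose ratio was one of background signals, had adjusted exact p of 0.0625 to 0.406. No pair passed an adjusted p of 0.05. The 3 pairs with ace-2 were at the smallest p of the test, and where 3 of 6 pairs reach it the adjusted p is 0.0625. The lack of a call therefore does not show that these genes responded alike.

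The values of the 3 dim genes moved with the background correction. The log2 change of ace-1 was 0.18 without one and 0.45 with plain subtraction, that of ace-3 was 0.09 and 0.23, and that of the background signals of ace-4 was 0.00634 and 0.18. Over all alternatives the range was 0.14 to 0.45 for ace-1 and 0.07 to 0.23 for ace-3, with the lowest value of both within scan day 1. A filter that kept only probes above background on all arrays of a condition removed ace-1, ace-3 and ace-4 and left ace-2 alone.

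**Figure D3:**
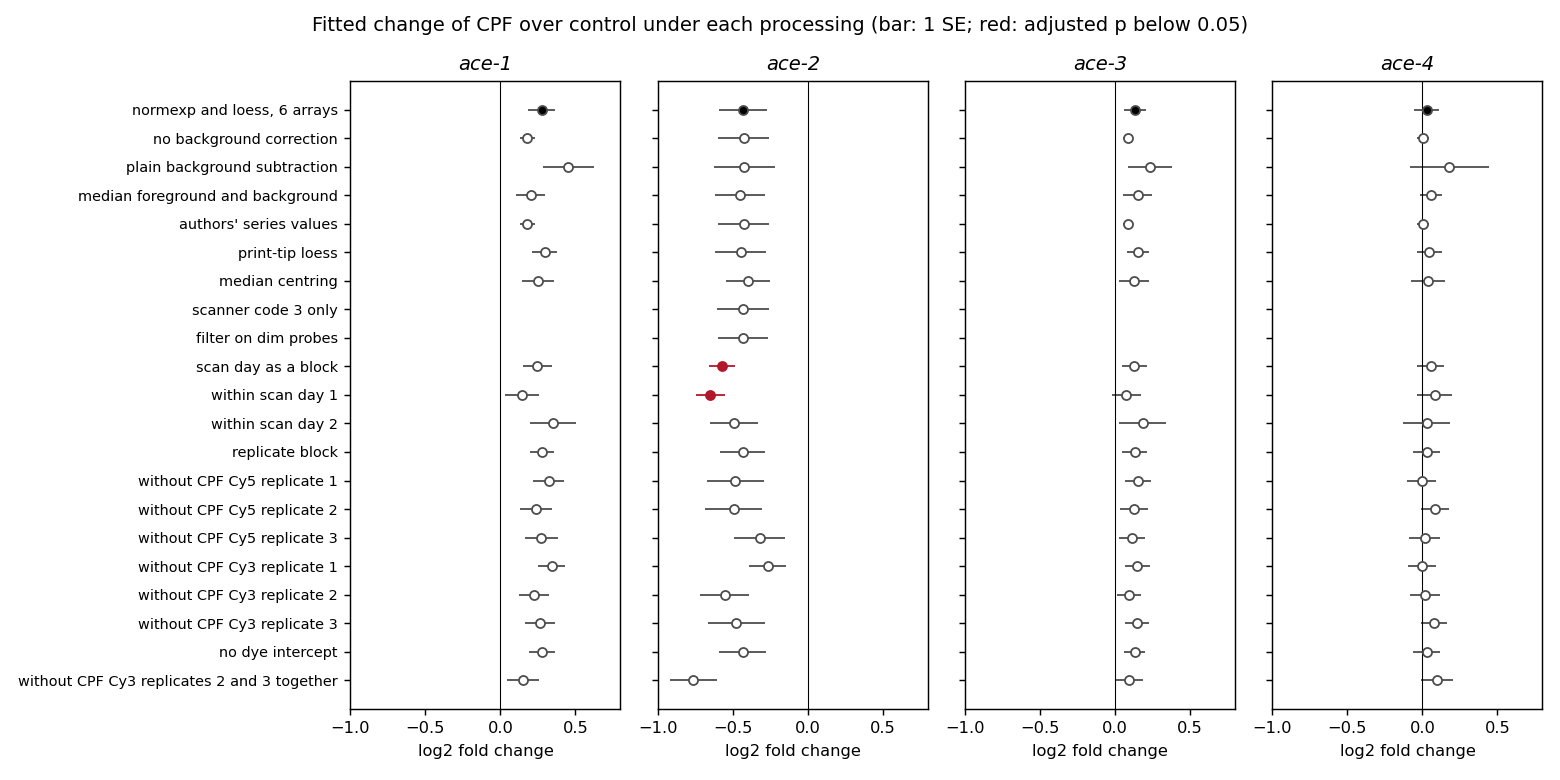
Fitted log2 fold change of CPF over control with its SE for each gene (panels) under each processing (rows), with red marking an adjusted p below 0.05 in limma. The ace-2 points lie at -0.76 to -0.27 and are red in the fit with a block for scan day and in that of scan day 1; ace-1, ace-3 and ace-4 have no point where the dim spots were left out.

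The genes that transport, release and sense the substrate of these enzymes were set beside them. In 5 lists covering acetylcholine transport (2 genes, as the synthesis gene cha-1 was not analysed here), vesicle release, nicotinic receptors, acetylcholine gated chloride channels and muscarinic signalling, 76 genes were measured. In limma 0 of them passed in either direction, against 1.19% of all genes, and an unadjusted p below 0.05 was reached by 4 (5.26%), against 10.3% of all genes. Their median log2 change was 0.01, and that of all genes was also 0.01. Of the 76, 16 were not above background in any sample. The choline transporter gene cho-1 read 0.05 ± 0.09 (adjusted p = 0.918). Among nicotinic receptor subunits of muscle, unc-29 read 0.11 ± 0.11, unc-38 0.04 ± 0.10, lev-1 0.01 ± 0.12 and acr-16 -0.00268 ± 0.10 (adjusted p of 0.836 or above), while unc-63 was not above background in any sample. The muscarinic receptor genes gar-2 and gar-3 read 0.14 ± 0.11 and 0.15 ± 0.09 (adjusted p = 0.761 and 0.627). Without CPF Cy3 replicates 2 and 3, cho-1 read -0.06, unc-29 0.33, unc-38 0.06, lev-1 0.15, acr-16 0.18, gar-2 0.34 and gar-3 0.18 on the log2 scale, with adjusted p of 0.108 or above.

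Among genes with the lowest p of their lists, the motor neuron receptor subunit acr-2 read 0.25 ± 0.08 (adjusted p = 0.276, higher on 6 of 6 arrays), and lgc-49, a channel gene, 0.18 ± 0.10 (adjusted p = 0.641). Both read 0.34 without CPF Cy3 replicates 2 and 3 (adjusted p = 0.115 and 0.160). The lgc-49 spot was above background in only 2 of 6 CPF samples and 1 of 6 control samples. The gene ric-8, which encodes a G alpha chaperone and exchange factor, read -0.56 ± 0.16 (adjusted p = 0.205, lower on 6 of 6 arrays). On ric-8 the outcome turned with scan day as for ace-2, since its adjusted p in limma was 0.0407 when scan day was a block and 0.0175 on scan day 1 alone. Without CPF Cy3 replicates 2 and 3 it was 0.0208 for ric-8, whereas that of ace-2 was 0.0547.

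Carboxylesterases share the fold of acetylcholinesterase and can also bind organophosphates, and neuroligins share the fold without being enzymes. Of 36 such genes, 0 were higher and 1 was lower in limma (2.78%), the carboxylesterase gene cest-6, against 1.19% of all genes called and 0.869% called lower. Its log2 ratios were -1.21, -0.79 and -0.84 on CPF Cy5 replicates 1 to 3 and -0.46, -0.52 and -0.77 on CPF Cy3 replicates 1 to 3, all below 0. The fitted change was -0.76 ± 0.09 (adjusted p = 0.0151), and it was -0.70 (adjusted p = 0.0340) without CPF Cy3 replicates 2 and 3. The call was lost without background correction (adjusted p = 0.0566), with plain subtraction (0.107), with the authors' table (0.0575), within scan day 2 (0.0739), and without any 1 of CPF Cy5 replicates 1 and 2 and CPF Cy3 replicate 3 (0.0566 to 0.0822). In these settings the log2 change was -0.85 to -0.63.

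The list as a whole had a median log2 change of 0.12, against 0.01 for all genes, and a range of -1.04 to 1.11. An unadjusted p below 0.05 in limma was reached by 9 genes (25%), 6 higher and 3 lower, against 10.3% of all genes. The gut esterase gene ges-1 read -0.11 ± 0.08 (adjusted p = 0.746) and the neuroligin gene nlg-1 0.16 ± 0.18 (adjusted p = 0.857). They read -0.24 and -0.26 without CPF Cy3 replicates 2 and 3 (adjusted p = 0.238 and 0.227). Single arrays moved nlg-1, to 0.37 without CPF Cy3 replicate 1 and -0.02 without CPF Cy3 replicate 3. It read -0.31 within scan day 1 and 0.45 within scan day 2, a difference of 0.76 ± 0.28 (adjusted p = 0.599). Of 3 measured genes of the paraoxonase-like family, whose mammalian members split CPF oxon, 0 were called, and poml-2 had the lowest p at -0.28 ± 0.13 (adjusted p = 0.502). It read -0.15 without CPF Cy3 replicate 3 and -0.03 without CPF Cy3 replicates 2 and 3.

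**Figure D4:**
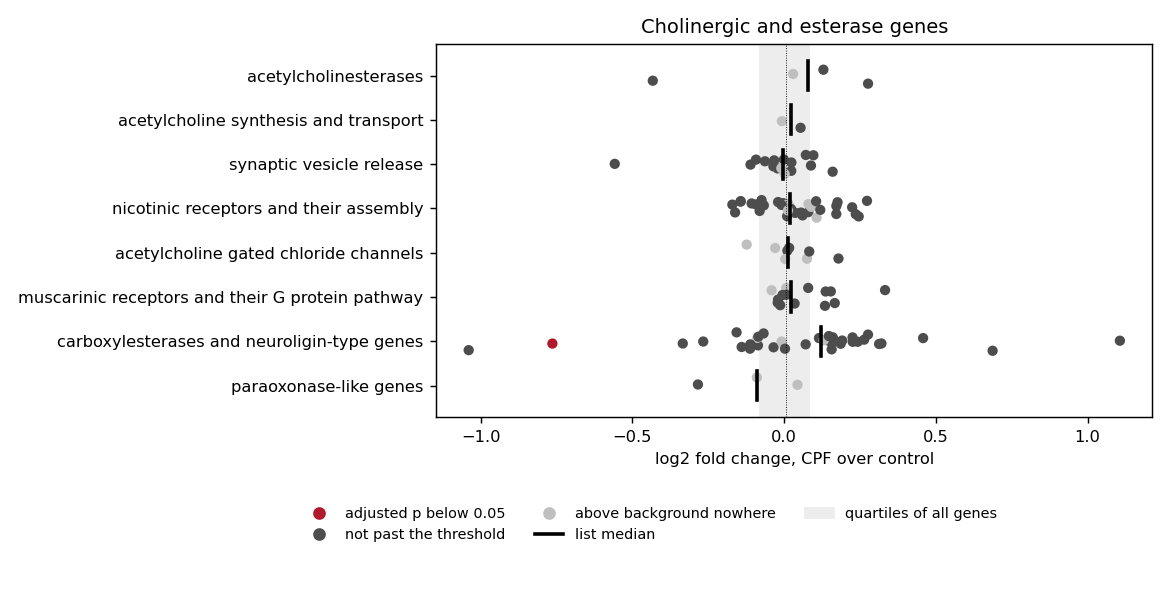
Fitted log2 fold change of CPF over control for each gene of the acetylcholinesterase, cholinergic, carboxylesterase and paraoxonase-like lists, with list medians as black bars and the quartiles of all genes shaded. The 1 red point past the threshold is cest-6 at -0.76, and the leftmost acetylcholinesterase point is ace-2 at -0.43.

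Because ace-1 and ace-2 are made in muscle and neurons, markers of these and of other tissues were read beside them. Over all genes 1.19% were called and 0.869% were called lower, so 0 called in a short list does not show that a tissue was unchanged. Of 15 neuron markers 0 were called, and their summed normalized brightness was 11909 to 23360 in CPF samples and 12461 to 25953 in control samples. Of 18 markers of body wall muscle 0 were called, with sums of 136664 to 201635 in CPF samples and 132130 to 190987 in control samples. Within arrays, the log2 ratio of CPF over control of the sum was -0.27 to 0.33 for neuron markers, below 0 on 4 of 6 arrays, and -0.43 to 0.45 for body wall muscle markers, below 0 on 3 of 6. Without CPF Cy3 replicates 2 and 3 it was -0.27 to 0.33 for neuron markers and -0.43 to 0.000399 for body wall muscle markers. The neuron markers rgef-1 and unc-33 were not above background in any sample. Of 10 markers of the pharynx 1 was called lower (pqn-75, -0.74 ± 0.11, named after its value was seen). Of these 10, 8 had a log2 change above 0 and 2 below it, so the call does not stand for the list. The log2 ratio of the sum of these 10 was -0.67 to 0.93, and -0.67 to 0.08 without CPF Cy3 replicates 2 and 3. Of 8 markers of cholinergic motor neurons, 11 of the intestine and 12 of the hypodermis 0 were called, with median log2 changes of 0.06, -0.11 and 0.06. Of the 8 motor neuron markers, 3 (acr-5, unc-4 and unc-55) were not above background in any sample.

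The germ cells of the same worms gave another reading. The sum of 21 sperm markers was 14368 to 45498 in CPF samples and 48077 to 110320 in control samples. The log2 ratio of the sum within arrays was -2.94 to -0.51 (-2.94 to -1.38 without CPF Cy3 replicates 2 and 3). A sum gives bright probes the most weight, and the median log2 change of the 21 markers was smaller, at -0.42. Their median on single arrays was -0.86 to -0.28. Of these 21, 4 were called lower (19%, against 0.869% of all genes), namely msp-38, msp-45, msp-50 and msp-59, near-identical genes whose probes may share RNA and which were named after their values were seen. Of these markers, msp-10 and spe-38 were not above background in any sample. The sum of 18 germline markers was 26313 to 67647 in CPF samples and 44741 to 55428 in control samples, with 0 called, a median log2 change of -0.37 and none without signal. Within arrays its log2 ratio was -0.77 to 0.50, and -0.77 to -0.13 without CPF Cy3 replicates 2 and 3. The part of these shifts in the ratios of ace-1 and ace-2 was not tested.

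The genes most alike in pattern were found by the correlation of their log2 ratio over the same 6 arrays, among 5841 to 5842 genes above background in every sample. For ace-1 these were vps-32.1 (r = 0.983), mop-25.2 (0.977) and dcp-66 (0.976), whose own log2 changes were -0.03, 0.08 and 0.12. For ace-2 they were pqn-78 (0.971), clec-50 (0.971) and T21C9.9 (0.970), whose own log2 changes were -0.44, -0.28 and -0.23. For ace-3 they were nspb-4 (0.984), slx-1 (0.973) and tni-4 (0.973), with log2 changes of -0.27, -0.02 and 0.09. None of these 9 changes passed, and they took either sign beside ace-1 and ace-3. With 6 arrays that share their dyes and scan days, 48 to 60 genes had an r above 0.9 with each of these 3 genes, and the correlations are given as a description only.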

How the data were processed

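RNA of CPF and control worms was compared on 6 arrays in a dye swap. Per the file headers, a ScanArray Express scanner gave the deposited intensity of each spot and its local background on a linear scale, not normalized, with the percent of saturated pixels and a scanner code (a score with no stated meaning). The authors also deposited a table of log2 ratios, which equalled CPF over control after loess without background correction to within 0.0148 and served as an alternative. Its column medians were -0.00213 to 0.00608.

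Of 23232 spots per array, 742 control or empty spots were left out. Of 22490 probes, 21382 were named by locus tag and 31 by gene number, and 1077 kept the file's name. cha-1 and unc-17 could not be matched to a probe through the name tables used and were not analysed here. Mean intensities were corrected with normexp (offset 50), normalized by loess within and Aquantile between arrays, turned to CPF over control, and fitted in limma 3.58.1 (R 4.3.3) with a dye term. p-values were adjusted by Benjamini-Hochberg over genes, each represented by its brightest probe, and a gene was called at an adjusted p below 0.05. The pair tests were exact. The rank product used 100 permutations and a percentage of false positives below 0.05. The fit was tested on simulated data.

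Genes were named where they were acetylcholinesterases, core cholinergic or esterase genes, list members past the threshold or with the lowest p of a list, or the 3 most alike in pattern, and 1 gene under this rule is not reported here. Members and lists were chosen with earlier results of these data known. Alternatives covered background, pixels, normalization, spot and probe filters, scan day, replicate number, dye term, test and each array left out. The number of arrays limits the precision.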

Additional observations from a re-analysis of the deposited data

Results flagged for a closer look

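For cho-1, the choline transporter gene, every array of scan day 2 lay above 0 and every array of scan day 1 below it. The log2 ratios were 0.10, 0.49 and 0.12 on day 2 and -0.21, -0.14 and -0.03 on day 1, and the day means differed by 0.368. In limma with a term for the difference between days, which gives both dye orientations equal weight, that difference was 0.31 ± 0.17 (adjusted p = 0.689). Such a separation of the days was not particular to cho-1, and its share over all genes was not counted. The log2 ratios of gar-2 were 0.20 to 0.51 on day 1 and -0.27 to 0.11 on day 2. Those of nlg-1 were -0.65 to 0.06 on day 1 and 0.29 to 0.90 on day 2. For ges-1, the gut esterase gene, the log2 ratio of -0.44 on CPF Cy3 replicate 1 lay far from the other 5 arrays, which read -0.12 to 0.04. It was the 1 such value among 28 groups of 6 arrays, and chance gives about 1 in 20. None of the acetylcholinesterase genes had such a value.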

How the results depend on the processing

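The direction of ace-1 and ace-3 (19 alternatives each) and ace-2 (21) held throughout, and ace-1 and ace-3 did not pass under any. For ace-2, which did not pass otherwise, adjusted p in limma was 0.0481 (log2 change -0.57) with a block for scan day, and 0.0278 (-0.65) within scan day 1. The sign of ace-4, at background, turned where replicate 1 of CPF Cy5 (-0.00631) or of CPF Cy3 (-0.00365) was left out. Leaving out 1 array gave 0.23 to 0.34 for ace-1, -0.55 to -0.27 for ace-2, 0.09 to 0.15 for ace-3 and -0.00631 to 0.0819 for ace-4. Correlations between arrays of equal replicate number were 0.0991, 0.0805 and -0.0362, and those of unequal number ran from -0.126 to 0.0594. They do not settle whether replicate numbers pair the samples. A block for replicate number left ace-1 at 0.28 and ace-2 at -0.43 (adjusted p = 0.256 and 0.365 in limma), with 295 genes called. The number of genes called was 225, against 19 without background correction and with the authors' table, 3 with plain subtraction, 145 with median intensities, 130 with a block for scan day, 861 and 139 within scan days 1 and 2, 619 without CPF Cy3 replicates 2 and 3, 552 by rank product and 7 to 313 with 1 array left out. The cause was not tested. At 3 SD, ace-3 was above background in 3 of 6 control samples, and against the 95th percentile of empty spots ace-4 was above in 1 of 6 CPF and 1 of 6 control samples. Of the cholinergic lists 1 gene passed with a block for scan day, 1 within scan day 1, 1 without CPF Cy3 replicates 2 and 3 (ric-8 each time), and 0 to 1 with 1 array left out (not ric-8). Of the carboxylesterase list 5 passed within scan day 1, 0 without background correction, 3 without CPF Cy3 replicates 2 and 3, and 0 to 2 with 1 array left out. Values of ace-1 and ace-3 are limited by signals near background, and no value of ace-4 bears on its RNA.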
